A study of Homo sapiens with 21 samples.

Results

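The genes described here encode subunits of 3 kinds of chromatin complex and were picked by name. Of 54 listed genes, 25 encode subunits of BAF, 15 encode subunits of NuRD together with the demethylase KDM1A and its partner RCOR1, and 14 encode polycomb proteins. The count table held 57820 genes. An identifier in it was found for 53 of the 54, and PCGF2 is not analysed here because its symbol matched no identifier. Of the 53, 52 averaged 1 count or more over the libraries and were tested. ACTL6B, which encodes an actin-like BAF subunit of neurons, failed that filter, with 0 to 5 counts per library, so the tested genes numbered 24 for BAF, 15 for NuRD with KDM1A and 13 for polycomb.

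BAF complexes use the ATPase SMARCA4 or SMARCA2 to slide and evict nucleosomes, and exist as canonical BAF (marked by ARID1A or ARID1B and the DPF proteins), PBAF (ARID2, PBRM1, BRD7, PHF10) and a non-canonical form (BRD9). NuRD joins a CHD remodelling ATPase to the histone deacetylases HDAC1 and HDAC2, and KDM1A removes activating methyl marks from histone H3, with RCOR1 in CoREST or together with NuRD. Polycomb repressive complex 2 (PRC2; EZH1 or EZH2 with EED and SUZ12) places a repressive methyl mark on histone H3, and polycomb repressive complex 1 (PRC1; RING1 or RNF2 with a PCGF protein, CBX reader and PHC protein) ubiquitinates histone H2A and compacts chromatin. In Ewing sarcoma the fusion EWS/FLI is known to bring BAF complexes to GGAA repeats, and NuRD and KDM1A are known partners in repression, while EZH2 is known as a gene activated by the fusion.

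RNA-seq libraries were made from A673, a long-established Ewing sarcoma line that carries EWS/FLI. There were 21 libraries of 7 groups with 3 replicate sets each. All cells received an shRNA by retrovirus on day 1 and a vector or cDNA on day 5, and were kept until day 16 under selection with puromycin at 2 µg/ml and hygromycin at 400 µg/ml. The iLuc group carried an shRNA against luciferase and an empty vector and so kept the endogenous fusion; its comparison with iEF is called endo-EF. The iEF group carried an shRNA against EWS/FLI and an empty vector. The other 5 groups carried the shRNA of iEF and a 3XFLAG-tagged cDNA: WT-EF, the full-length fusion; Δ22, which lacks the EWS domain; DAF, full length with tyrosines of the N-terminal EWS repeats changed to alanine and the SYGQ2 part intact; mut9, with a large internal deletion of EWS; and DAF-mut9, mut9 with its remaining repeat tyrosines changed. The cDNAs were driven by a retroviral vector in 1 cell line, and iLuc differed from the other groups in its shRNA as well as in the fusion, which cannot be told apart. The DAF-mut9 columns were read from the name mut9d in the count table, and every DAF-mut9 value depends on that reading. In bulk RNA, fewer cells with a transcript and less transcript per cell cannot be told apart.

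Library totals were 32.9 to 46.2 M counts, and levels are given as CPM, each count scaled to the library total (in M) after TMM scaling of each library (a scaling that sets the typical gene equal between libraries). TMM factors were 1.05 to 1.15 in iLuc and WT-EF and 0.923 to 1.03 in the other groups, so small differences depend on the scaling. The knockdown was checked on FLI1, whose count takes in the fusion transcript and the FLI1 part of each cDNA. FLI1 stood at 61.3, 60.6 and 89 CPM in the iLuc libraries and 20.8, 20 and 21.1 in iEF. The rescued cells held 21.9, 25.2 and 26.5 CPM in WT-EF, 28.3, 33.4 and 30.4 in mut9, 36.2, 39.8 and 35.1 in DAF, 34.6, 37 and 37.3 in DAF-mut9 and 41.3, 45.2 and 62 in Δ22. The iLuc group had the highest mean, with 2 of its libraries below Δ22 replicate 3, and WT-EF had the lowest mean of the cDNA groups (log2 fold change 0.24 ± 0.13 (SE), adjusted p = 0.196 over iEF, against 1.25 ± 0.13 for Δ22). The groups thus differed in the FLI1 count, and the part of FLI1 level in the results below was not tested. The paper places the target of the iEF shRNA in the non-coding tail of the message. Whether the cDNAs carry that tail is not given in the sources used here. If they lack it, a cDNA transcript adds reads over fewer bases than the endogenous fusion does. FLI1 CPM therefore cannot rank the transcript amount of iLuc against the cDNA groups, or size the rescue by WT-EF over iEF.

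Most of the subunit genes were higher with the endogenous fusion than after its depletion. At an adjusted p below 0.05 (edgeR quasi-likelihood test, Benjamini-Hochberg over all tested genes), 28 of 52 rose and 7 fell in iLuc over iEF, where 18.7% of all 30549 tested genes rose and 22.4% fell. The median log2 fold change was 0.36 over the 52 genes and 0.0061 over all tested genes. Well-counted genes were called more often. Among the 9212 genes with a mean of at least 10 CPM, 27.1% rose and 33.2% fell, and of the 48 subunit genes at that level 27 rose and 6 fell. By complex, 13 BAF genes rose and 5 fell of 24, 7 NuRD genes rose and 1 fell of 15, and 8 polycomb genes rose and 1 fell of 13. With library totals in place of TMM, 33 rose and 4 fell, while the median of all genes itself shifted to 0.17. The calls for 22 of the 35 genes were kept in each of 14 alternative settings.

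The constructs restored this pattern to different extents, with iEF again as the shared baseline of every comparison. In WT-EF 16 of the 52 genes rose and 6 fell, against 11.4% and 16.9% of all tested genes. Of genes with a mean of at least 10 CPM, 18.2% rose and 26.2% fell. Of the 48 subunit genes at that level, 15 rose and 5 fell. In mut9 6 rose and 2 fell, where 6.22% and 8.33% of all genes did. At 10 CPM or more 8.51% and 12.5% did, and 5 and 2 of the 48 subunit genes. In DAF 1 rose and 2 fell (3.41% and 4.02%) and in DAF-mut9 1 rose and 0 fell (1.26% and 2.14%). In Δ22 0 rose and 1 fell (0.881% and 1.79%), so these 3 groups lay near the shares of all genes. At 10 CPM or more 6.32% rose and 5.24% fell in DAF, 2.52% and 2.3% in DAF-mut9 and 1.68% and 2.04% in Δ22. Of the 48 subunit genes there, 1 rose and 2 fell in DAF, which was below the share of genes at that level. In DAF-mut9 1 rose and 0 fell, and in Δ22 0 rose and 1 fell. The 0 counts come from edgeR. At an unadjusted p below 0.05, 4 of the 52 genes differed in DAF-mut9 and 4 in Δ22, and DESeq2 and limma each called 1 gene lower in DAF-mut9 and 0 higher in Δ22. The median log2 fold change of the 52 genes over iEF was 0.23 in WT-EF, 0.08 in mut9, 0.02 in DAF, 0.11 in DAF-mut9 and 0.05 in Δ22. With library totals the WT-EF calls became 34 higher and 2 lower and the mut9 calls 11 and 1, with the median of all genes at 0.19 and 0.10. The lower calls were 3 without iEF replicate 1 or WT-EF replicate 2 or 3 in WT-EF, and 1 without iEF replicate 1 or mut9 replicate 1 or 2 in mut9.

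**Figure D1:**
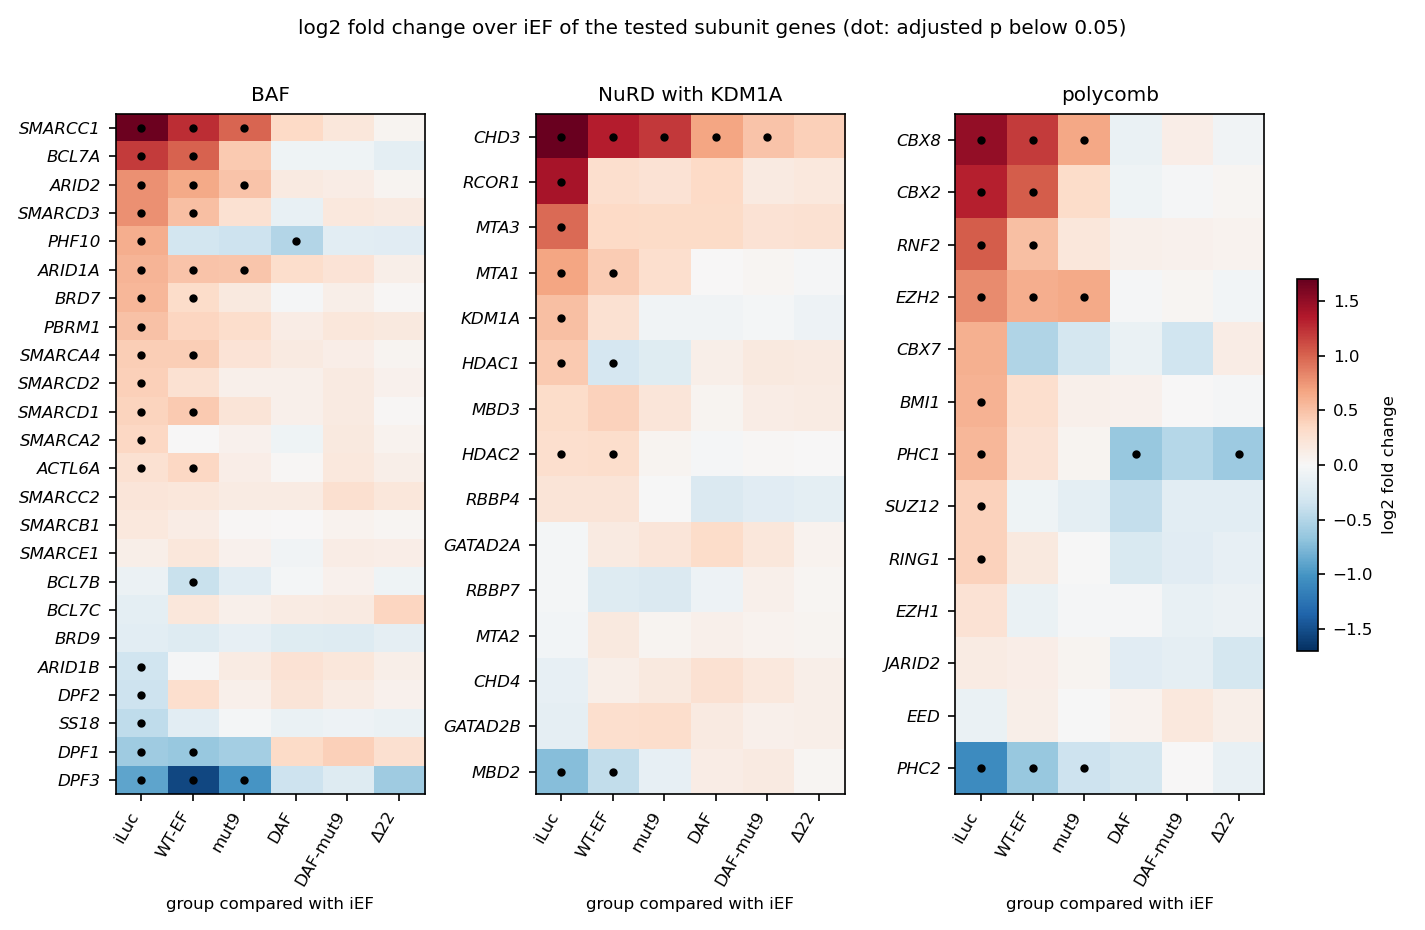
Log2 fold change over iEF of the 52 tested genes (rows, sorted within each complex by the iLuc column) in the 6 other groups (columns), where red is higher than iEF, blue is lower, and a dot marks an adjusted p below 0.05. SMARCC1, CHD3 and CBX8 head their complexes and keep their colour in WT-EF and mut9, while the DAF, DAF-mut9 and Δ22 columns are pale, with 3, 1 and 1 dots.

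Among BAF genes the largest change was in SMARCC1 (ENSG00000173473, chr3:47626759-47823596, minus strand, hg19), which encodes BAF155, a core scaffold subunit. SMARCC1 stood at 488, 567 and 391 CPM in the iLuc libraries and 159.7, 152 and 142 in iEF. SMARCC1 counts in rescued cells were 363, 389.9 and 331 CPM for WT-EF, 289, 342 and 275 for mut9, 178, 191 and 205 for DAF, 162, 160.4 and 192 for DAF-mut9 and 147, 170.0 and 153 for Δ22. Every iLuc library lay above every other library, WT-EF and mut9 lay above the other 4 groups, and those 4 shared a range of 142 to 205 CPM. The level in iLuc was 3.17 times that of iEF (log2 fold change 1.67 ± 0.12 (SE), adjusted p = 6.06e-10). WT-EF reached 1.25 ± 0.12 (adjusted p = 1.03e-07) and mut9 0.99 ± 0.12 (adjusted p = 5.66e-06). In DAF the value was 0.34 ± 0.12, which did not pass (adjusted p = 0.0943).

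BCL7A (ENSG00000110987, chr12:122457328-122499950, plus strand) encodes a small accessory BAF subunit. BCL7A stood at 21.1, 26.8 and 31.8 CPM in the iLuc libraries and 12.2, 10.8 and 11.6 in iEF. In WT-EF the values were 20.5, 28.3 and 21, in mut9 15.3, 15.1 and 16.8, in DAF 9.33, 11.4 and 12.7, in DAF-mut9 9.53, 9.49 and 14.4 and in Δ22 9.68, 11.4 and 9.9. The iLuc and WT-EF libraries overlapped each other and lay above all others (log2 fold change 1.18 ± 0.16 (SE), adjusted p = 4.47e-06 in iLuc and 1.01 ± 0.16 in WT-EF). ARID2 (ENSG00000189079, chr12:46123489-46301823, plus strand) encodes the DNA-binding subunit that defines PBAF. ARID2 stood at 139, 142 and 141 CPM in the iLuc libraries and 82.7, 91.4 and 73.4 in iEF. Levels of 127, 146 and 114 were found in WT-EF, 108, 124 and 114 in mut9, 86.2, 98.3 and 90.3 in DAF, 89.4, 89.9 and 90.6 in DAF-mut9 and 79.3, 91.4 and 84.2 in Δ22. The iLuc and iEF libraries did not overlap (log2 fold change 0.77 ± 0.09 (SE), adjusted p = 7.08e-07), and ARID2 also rose in WT-EF (0.64 ± 0.09) and mut9 (0.48 ± 0.09).

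SMARCD3 (ENSG00000082014, chr7:150935850-150974982, minus strand), which encodes the BAF60C variant of muscle and nerve, was counted at a low level. SMARCD3 stood at 14.2, 16 and 12.4 CPM in the iLuc libraries and 8.31, 9.45 and 7.21 in iEF. Among the cDNA groups, WT-EF had 12, 12.3 and 11.3, mut9 9.25, 11.3 and 9.39, DAF 7.91, 6.15 and 8.69, DAF-mut9 9.58, 10.2 and 8.46 and Δ22 8.83, 9.46 and 9.44. It was 0.77 ± 0.15 higher in iLuc on the log2 scale (adjusted p = 2.36e-04). In WT-EF it rose by 0.51 ± 0.15, and that call ended without iEF replicate 3 (0.43). Its exons overlap those of CHPF2 on the other strand over 1321 bases, and the strand setting of the counts is not given in the sources used here, so its level is uncertain.

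PHF10 (ENSG00000130024, chr6:170103998-170125662, minus strand) encodes a PBAF subunit with histone-binding fingers. PHF10 stood at 54.4, 58.5 and 48.5 CPM in the iLuc libraries and 34.3, 41.1 and 30.3 in iEF. Rescue with WT-EF gave 28.2, 31.1 and 25.6, mut9 24.9, 27.3 and 29.9, DAF 24.5, 28.1 and 22.1, DAF-mut9 33.8, 30.4 and 28.4 and Δ22 31, 29.2 and 31.6. Only the iLuc libraries stood above iEF (log2 fold change 0.61 ± 0.12 (SE), adjusted p = 2.50e-04). With cDNAs every log2 fold change was negative, from -0.50 in DAF, which passed, to -0.18 in DAF-mut9. The DAF call ended without iEF replicate 2 or DAF replicate 1 or 3 (-0.49 to -0.41). PBAF genes did not move as 1 block, since ARID2 followed the fusion in WT-EF and mut9 and PHF10 did not.

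The ARID1 genes, which encode the large subunits of canonical BAF, moved apart. ARID1A (143, 116 and 124 CPM in iLuc and 96.9, 79.5 and 80.6 in iEF) rose by 0.58 ± 0.12 in iLuc, 0.48 ± 0.12 in WT-EF and 0.47 ± 0.12 in mut9. The mut9 call ended without iEF replicate 3 or mut9 replicate 3 (0.37). ARID1B stood at 60.9, 61.4 and 67.6 CPM in the iLuc libraries and 83.9, 75.6 and 80.9 in iEF. The rescued cells held 76.9, 78.6 and 82.5 CPM in WT-EF, 82.4, 86.2 and 97.3 in mut9, 84.6, 102 and 98.5 in DAF, 93.1, 92.1 and 89.1 in DAF-mut9 and 81.2, 85.7 and 90.5 in Δ22. ARID1B had the opposite sign in iLuc, -0.34 ± 0.09 (adjusted p = 0.00489), with no overlap between the groups. Its value was -0.02 in WT-EF, and WT-EF lay above iLuc by 0.33 ± 0.09 (adjusted p = 0.0161). With library totals the iLuc value for ARID1B was -0.18 and did not pass (adjusted p = 0.132).

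The DPF family encodes alternative finger subunits of canonical BAF, of which DPF2 is common to most cells and DPF1 and DPF3 belong mainly to nerve and muscle. All 3 were lower in iLuc than in iEF. DPF3 stood at 13, 12.4 and 25.6 CPM in the iLuc libraries and 18, 24.1 and 57.6 in iEF. DPF3 counts in rescued cells were 9.01, 9.24 and 13.3 CPM for WT-EF, 13.7, 15.2 and 16.2 for mut9, 16.6, 28.1 and 27.9 for DAF, 20, 26.3 and 33.2 for DAF-mut9 and 13.8, 22.3 and 25.7 for Δ22. The iEF libraries were spread from 18 to 57.6 CPM and overlapped iLuc, and WT-EF had the lowest mean. DPF3 (ENSG00000205683, chr14:73075742-73360809, minus strand) fell in iLuc (log2 fold change -0.90 ± 0.21 (SE), adjusted p = 0.00167), in WT-EF (-1.55 ± 0.22, adjusted p = 1.34e-05) and in mut9 (-1.0 ± 0.21). Without iEF replicate 3, its highest library, the iLuc value was -0.54 and still passed.

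DPF1 stood at 3.08, 1.46 and 3.83 CPM in the iLuc libraries and 5.23, 2.53 and 4.73 in iEF. In WT-EF the values were 2.35, 2.35 and 3.17, in mut9 2.36, 2.68 and 3.17, in DAF 4.8, 4.85 and 5.63, in DAF-mut9 5.96, 5.16 and 4.94 and in Δ22 5.46, 3.99 and 5.4. DPF1 (ENSG00000011332, chr19:38701646-38720354, minus strand) is thus a gene of a few CPM in all groups, and iLuc and iEF overlapped (log2 fold change -0.60 ± 0.24 (SE), adjusted p = 0.0478). The iLuc call ended without iLuc replicate 1 or 2 or iEF replicate 1 or 3 (-0.68 to -0.35), and the WT-EF call (-0.64 ± 0.24) ended without iEF replicate 1 or 3 or WT-EF replicate 1, 2 or 3 (-0.69 to -0.44). DPF2 stood at 61.5, 55.8 and 72 CPM in the iLuc libraries and 80.8, 78 and 82.5 in iEF. Levels of 102, 90.9 and 102 were found in WT-EF, 88.4, 82.9 and 84.2 in mut9, 86.4, 98.2 and 95.5 in DAF, 89.2, 88.1 and 88.1 in DAF-mut9 and 71.1, 80.6 and 105 in Δ22. DPF2 (ENSG00000133884, chr11:65101314-65121733, plus strand) was lower in all 3 iLuc libraries than in any iEF or WT-EF library (log2 fold change -0.36 ± 0.11 (SE), adjusted p = 0.0146 in iLuc, and 0.29 ± 0.11, adjusted p = 0.062, in WT-EF). The iLuc call ended without iLuc replicate 2 or iEF replicate 1 (-0.33 to -0.29). DPF2 exons overlap those of another gene on the other strand over 1239 bases, so its level is uncertain.

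SS18, the subunit fused in synovial sarcoma, was also lower in iLuc. SS18 stood at 133, 113 and 148 CPM in the iLuc libraries and 184, 175 and 173 in iEF. Among the cDNA groups, WT-EF had 171, 148 and 153, mut9 177, 172 and 170.0, DAF 167, 155 and 169, DAF-mut9 172, 164 and 164 and Δ22 176, 169.9 and 146. The iLuc and iEF libraries did not overlap (log2 fold change -0.44 ± 0.10 (SE), adjusted p = 0.00114). The WT-EF value was -0.17 ± 0.10, which did not pass (adjusted p = 0.211).

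Both ATPase genes were called higher in iLuc. SMARCA4 stood at 329.7, 288 and 312 CPM in the iLuc libraries and 257, 225 and 211 in iEF. Rescue with WT-EF gave 291, 319 and 316, mut9 263, 259 and 297, DAF 232, 267 and 279, DAF-mut9 231, 238 and 282 and Δ22 215, 252 and 254. SMARCA4 rose by 0.42 ± 0.11 in iLuc and 0.41 ± 0.11 in WT-EF, and these calls ended without iEF replicate 3 (0.30) in iLuc and without iEF replicate 3 (0.30) in WT-EF. SMARCA2 stood at 111, 111 and 66.8 CPM in the iLuc libraries and 80.4, 72 and 72.5 in iEF. The rescued cells held 80.6, 77 and 69.5 CPM in WT-EF, 78.1, 87.1 and 72.3 in mut9, 83.9, 65.1 and 66.3 in DAF, 91.5, 83.7 and 76.8 in DAF-mut9 and 82.7, 76 and 75.5 in Δ22. SMARCA2 rose by 0.35 ± 0.12 in iLuc with overlap, through 2 of 3 libraries, and that call ended without iLuc replicate 1 or 2 or iEF replicate 1 or 2 (0.22 to 0.33).

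The other BAF60 genes showed small rises. SMARCD1 stood at 99.5, 92.1 and 99.97 CPM in the iLuc libraries and 87.1, 60.4 and 77.9 in iEF. SMARCD1 counts in rescued cells were 102, 96.4 and 107 CPM for WT-EF, 87.3, 83.8 and 89.5 for mut9, 76.2, 75.1 and 87.5 for DAF, 81.7, 81.1 and 86.2 for DAF-mut9 and 73.9, 77.8 and 75.9 for Δ22. SMARCD1 rose by 0.38 ± 0.10 in iLuc and 0.44 ± 0.10 in WT-EF, and the iLuc call ended without iEF replicate 2 (0.26). SMARCD2 stood at 98.6, 100.4 and 82 CPM in the iLuc libraries and 72.7, 80.1 and 60.7 in iEF. In WT-EF the values were 88.9, 92.3 and 74, in mut9 72.9, 85.9 and 67.1, in DAF 75.6, 79.9 and 70.2, in DAF-mut9 78.6, 77.3 and 79.5 and in Δ22 69.2, 78.1 and 76. SMARCD2 rose by 0.40 ± 0.10 in iLuc and was 0.26 ± 0.10 higher in WT-EF, which did not pass (adjusted p = 0.0597). ACTL6A stood at 131, 104 and 130.1 CPM in the iLuc libraries and 108, 103 and 92.4 in iEF. Levels of 135, 127 and 124 were found in WT-EF, 112, 111 and 104 in mut9, 108, 89.5 and 111 in DAF, 119.6, 106 and 117 in DAF-mut9 and 117, 110.4 and 98.1 in Δ22. ACTL6A, the actin-like subunit of dividing cells, rose by 0.26 ± 0.10 in iLuc and 0.35 ± 0.10 in WT-EF. The iLuc call ended without iLuc replicate 1 or 3 or iEF replicate 1 or 3 (0.18 to 0.27) and the WT-EF call without iEF replicate 3 or WT-EF replicate 2 (0.27 to 0.34).

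BRD7 and PBRM1, bromodomain subunits of PBAF, were higher in iLuc by 0.57 ± 0.10 and 0.50 ± 0.14 on the log2 scale. BRD7 also rose in WT-EF (0.31 ± 0.10), a call that ended without iEF replicate 2 or 3 or WT-EF replicate 1 or 2 (0.27 to 0.30). The PBRM1 call in iLuc ended without iEF replicate 2 (0.29). BRD7 shares 3593 exon bases with ADCY7 on the other strand. The core subunit genes SMARCB1, SMARCC2 and SMARCE1, the non-canonical BRD9, and BCL7B and BCL7C did not pass in iLuc, with log2 fold changes of -0.18 to 0.20. SMARCB1 shares 2923 exon bases with DERL3 on the other strand, and SMARCE1 3487 with another gene model on the same strand. BCL7B fell by 0.38 in WT-EF, and that call ended without iEF replicate 1 or WT-EF replicate 2 or 3 (-0.39 to -0.29).

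**Figure D2:**
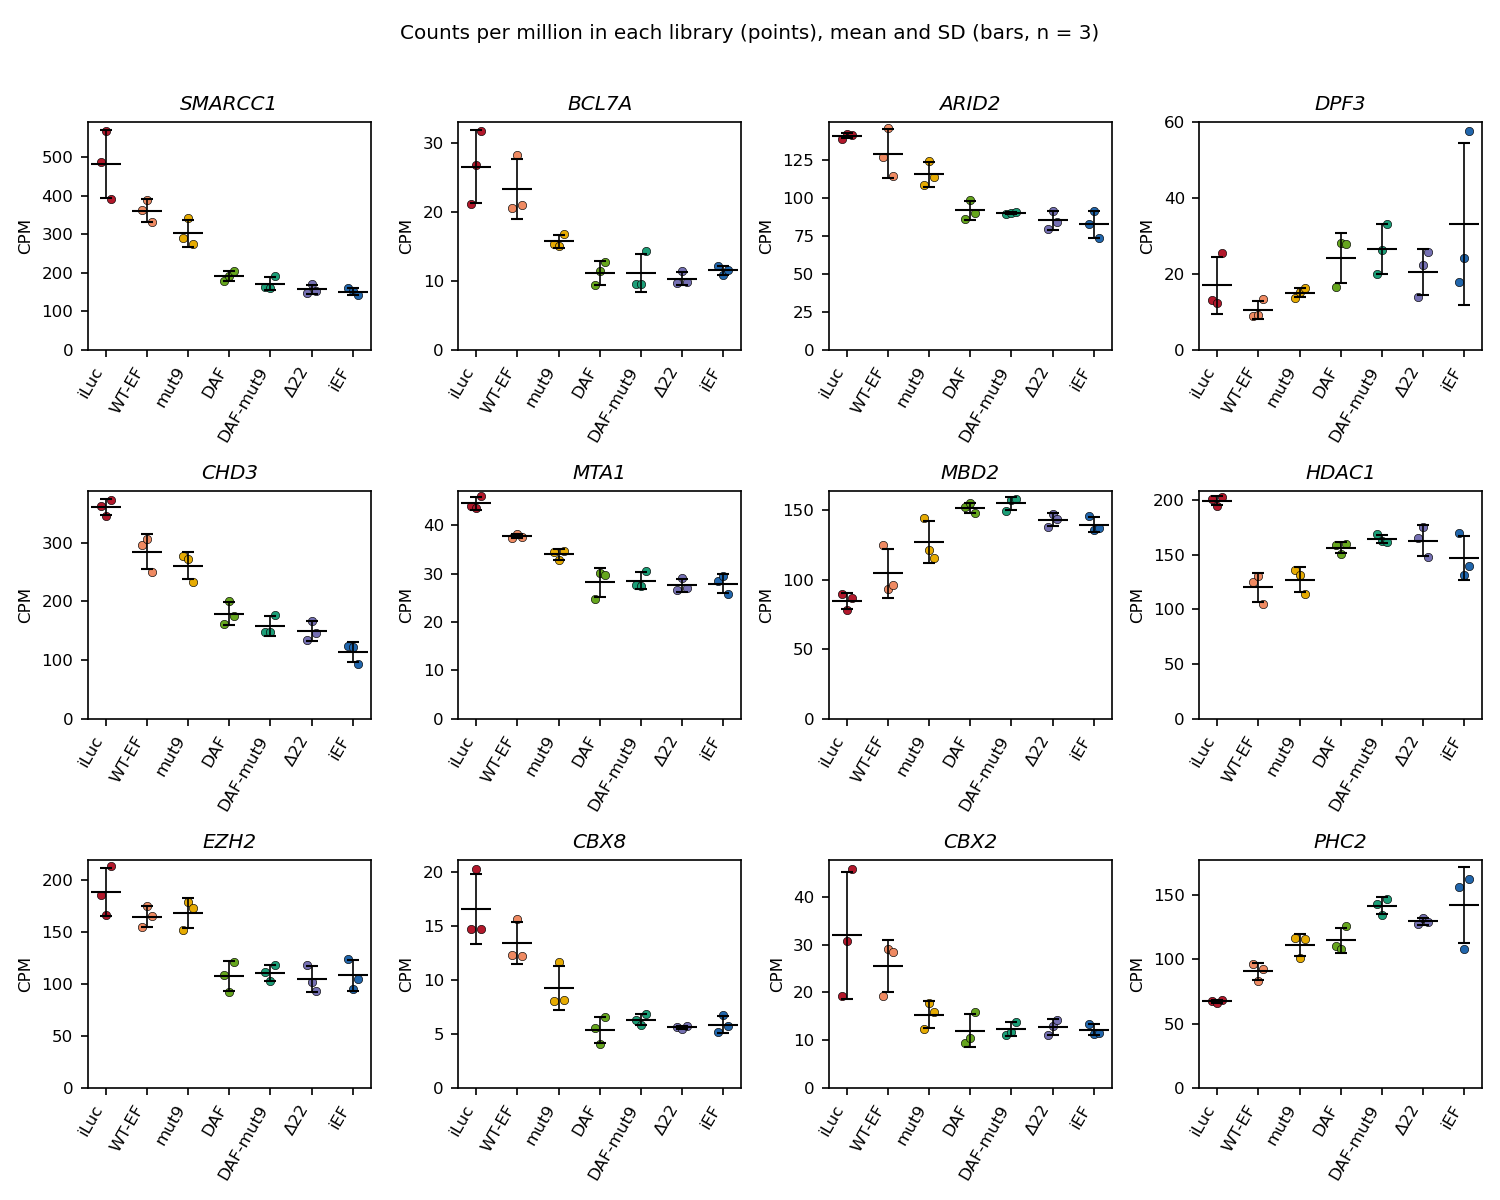
CPM (TMM-scaled, linear axes from 0) of 12 subunit genes in each of the 21 libraries, where points are libraries and bars are the mean and SD of 3. SMARCC1, CHD3 and CBX8 step down from iLuc through WT-EF and mut9 to the other groups, MBD2 and PHC2 run the other way, and HDAC1 is highest in iLuc with its lowest means in WT-EF and mut9.

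In NuRD the largest change was in CHD3 (ENSG00000170004, chr17:7788114-7816078, plus strand), which encodes 1 of its remodelling ATPases. CHD3 stood at 363, 346 and 373 CPM in the iLuc libraries and 124, 122 and 93.3 in iEF. Among the cDNA groups, WT-EF had 296, 307 and 251, mut9 277, 272 and 234, DAF 162, 201 and 175, DAF-mut9 147, 148 and 177 and Δ22 134, 167 and 147. The iLuc libraries lay above all others and iEF lowest, at 93.3 to 124 CPM. The level in iLuc was 3.2 times that of iEF (log2 fold change 1.68 ± 0.13 (SE), adjusted p = 9.54e-10). CHD3 was the 1 subunit gene called in WT-EF (1.33 ± 0.13), mut9 (1.21 ± 0.12), DAF (0.66 ± 0.12, adjusted p = 0.00178) and DAF-mut9 (0.48 ± 0.12, adjusted p = 0.0333). The DAF-mut9 call ended without iEF replicate 2 or 3 or DAF-mut9 replicate 1 or 3 (0.34 to 0.53), and the Δ22 value of 0.40 ± 0.12 did not pass (adjusted p = 0.0975). The DAF call was kept in all 14 settings.

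CHD4 (ENSG00000111642, chr12:6679248-6723690, minus strand), the alternative ATPase, did not follow. CHD4 stood at 402, 372 and 363 CPM in the iLuc libraries and 435, 429 and 394 in iEF. Rescue with WT-EF gave 421, 488 and 437, mut9 454, 474 and 483, DAF 486, 534 and 485, DAF-mut9 476, 473 and 470.2 and Δ22 413, 464 and 469. No comparison with iEF passed, and the log2 fold change was -0.15 ± 0.09 in iLuc (adjusted p = 0.211) and 0.10 ± 0.09 in WT-EF. Of its 12713 exon bases 5964 are shared with another gene model on the same strand, so its count is uncertain.

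RCOR1 (ENSG00000089902, chr14:103058986-103196898, plus strand) encodes CoREST, the scaffold that ties KDM1A to deacetylases. RCOR1 stood at 328, 248 and 245 CPM in the iLuc libraries and 104, 99.2 and 109 in iEF. The rescued cells held 124, 131 and 124 CPM in WT-EF, 123, 135 and 111 in mut9, 120.1, 149.6 and 124 in DAF, 120.0, 112 and 115 in DAF-mut9 and 92.6, 107 and 155 in Δ22. The iLuc libraries lay above all others, and the 5 cDNA groups spanned 92.6 to 155 CPM (log2 fold change 1.4 ± 0.16 (SE), adjusted p = 2.83e-07 in iLuc, and 0.28 ± 0.15, adjusted p = 0.193, in WT-EF). KDM1A stood at 360.0, 351 and 309.9 CPM in the iLuc libraries and 226, 293 and 206 in iEF. KDM1A counts in rescued cells were 262, 336 and 269 CPM for WT-EF, 231, 238 and 219.8 for mut9, 199, 249 and 244 for DAF, 228, 236 and 239 for DAF-mut9 and 202, 251 and 226 for Δ22. KDM1A rose by 0.51 ± 0.11 in iLuc (adjusted p = 7.93e-04), and the WT-EF value of 0.26 ± 0.11 did not pass (adjusted p = 0.084).

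The MTA genes encode the scaffold of NuRD. MTA3 stood at 61.7, 59.1 and 42 CPM in the iLuc libraries and 28.4, 32.6 and 22.5 in iEF. In WT-EF the values were 35.3, 38.7 and 31.1, in mut9 34, 38.8 and 31.5, in DAF 31.4, 41.4 and 31.9, in DAF-mut9 33.7, 33.7 and 30.6 and in Δ22 27.2, 36.2 and 34.9. MTA3 rose in iLuc (log2 fold change 0.97 ± 0.13 (SE), adjusted p = 3.54e-06), and the 0.34 ± 0.13 of WT-EF did not pass (adjusted p = 0.0553). MTA1 stood at 43.9, 43.6 and 46 CPM in the iLuc libraries and 28.5, 29.4 and 25.8 in iEF. Levels of 37.3, 38.2 and 37.6 were found in WT-EF, 34.5, 32.7 and 34.6 in mut9, 24.7, 30.2 and 29.6 in DAF, 27.7, 27.4 and 30.6 in DAF-mut9 and 26.5, 29 and 27.1 in Δ22. MTA1 rose in iLuc (log2 fold change 0.67 ± 0.10 (SE), adjusted p = 1.42e-05) and in WT-EF (0.43 ± 0.10), with no overlap between either group and iEF. MTA2 stood at 240.3, 218 and 242 CPM in the iLuc libraries and 261, 226 and 234 in iEF. Among the cDNA groups, WT-EF had 275, 271 and 263, mut9 266, 255 and 226, DAF 247, 251 and 266, DAF-mut9 252, 253 and 245 and Δ22 241, 262 and 242. MTA2, the most abundant of the family, was -0.04 ± 0.09 in iLuc (adjusted p = 0.762).

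The deacetylase HDAC1 (ENSG00000116478, chr1:32757684-32799236, plus strand) was called in opposite directions by the endogenous fusion and its full-length replacement. HDAC1 stood at 201, 195 and 203 CPM in the iLuc libraries and 170.2, 131 and 139.7 in iEF. Rescue with WT-EF gave 125, 131 and 105, mut9 136, 132 and 114, DAF 159, 151 and 159.8, DAF-mut9 169, 163 and 162 and Δ22 166, 176 and 148. All iLuc libraries lay above all others, and WT-EF and mut9 had the lowest means. HDAC1 rose by 0.44 ± 0.10 in iLuc (adjusted p = 0.00127) and fell by 0.29 in WT-EF (adjusted p = 0.0369). The WT-EF call ended without iEF replicate 1 or 3 or WT-EF replicate 1 or 3 (-0.30 to -0.20), and with library totals the value was -0.096 and did not pass (adjusted p = 0.513). The direct difference, WT-EF over iLuc, was -0.74 ± 0.10 (adjusted p = 2.42e-05) and was kept in all 14 settings. HDAC2 rose by 0.29 ± 0.09 in iLuc and 0.30 ± 0.09 in WT-EF. These calls ended without iLuc replicate 1 or 2 or iEF replicate 2 or 3 (0.23 to 0.27) in iLuc and without iEF replicate 2 or 3 (0.26 to 0.28) in WT-EF.

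MBD2 (ENSG00000134046, chr18:51677976-51751039, minus strand), which encodes the methyl-DNA-binding subunit, was the 1 NuRD gene that fell in iLuc. MBD2 stood at 89.4, 78.1 and 86.8 CPM in the iLuc libraries and 146, 136 and 137 in iEF. The rescued cells held 125, 93 and 96.1 CPM in WT-EF, 144, 121 and 116 in mut9, 152, 155 and 148 in DAF, 149.7, 157 and 158 in DAF-mut9 and 138, 147 and 144 in Δ22. All iLuc libraries lay below all others, and WT-EF lay between iLuc and iEF. MBD2 fell in iLuc (log2 fold change -0.72 ± 0.10 (SE), adjusted p = 9.16e-06) and in WT-EF (-0.42 ± 0.10), where the call ended without WT-EF replicate 2 (-0.33) and, with library totals, the value was -0.23 (adjusted p = 0.0643). MBD3, RBBP4, RBBP7, GATAD2A and GATAD2B did not pass in iLuc, WT-EF or mut9 over iEF, with log2 fold changes of -0.15 to 0.31 in iLuc.

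Among polycomb genes the CBX readers of PRC1 had the largest changes. CBX8 stood at 14.7, 20.3 and 14.7 CPM in the iLuc libraries and 5.11, 6.73 and 5.7 in iEF. CBX8 counts in rescued cells were 12.3, 15.6 and 12.2 CPM for WT-EF, 8.0, 11.6 and 8.09 for mut9, 5.51, 4.07 and 6.5 for DAF, 6.29, 5.76 and 6.84 for DAF-mut9 and 5.62, 5.45 and 5.68 for Δ22. CBX8 (ENSG00000141570, chr17:77765931-77775482, minus strand) was 2.83 times as high in iLuc as in iEF (log2 fold change 1.5 ± 0.19 (SE), adjusted p = 1.26e-06), and rose in WT-EF (1.19 ± 0.19) and mut9 (0.66 ± 0.19). The mut9 call ended without iEF replicate 1 or 3 or mut9 replicate 2 (0.49 to 0.63). CBX2 stood at 19.2, 30.7 and 45.9 CPM in the iLuc libraries and 13.4, 11.3 and 11.5 in iEF. In WT-EF the values were 19.2, 29 and 28.4, in mut9 12.3, 17.7 and 15.9, in DAF 9.41, 10.5 and 15.9, in DAF-mut9 11.1, 11.6 and 13.9 and in Δ22 10.9, 12.8 and 14.3. CBX2 (ENSG00000173894, chr17:77751947-77761782, plus strand), which lies next to CBX8 on chromosome 17, varied widely among the iLuc libraries, all of which were above iEF (log2 fold change 1.32 ± 0.19 (SE), adjusted p = 1.07e-05). It rose in WT-EF (1.03 ± 0.19) but the 0.31 ± 0.19 of mut9 did not pass (adjusted p = 0.347).

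CBX7 stood at 1.54, 1.86 and 1.1 CPM in the iLuc libraries and 0.84, 1.53 and 0.648 in iEF. Levels of 0.601, 1.06 and 0.442 were found in WT-EF, 0.786, 0.908 and 0.698 in mut9, 0.709, 0.874 and 1.09 in DAF, 0.95, 0.741 and 0.614 in DAF-mut9 and 1.1, 0.802 and 1.24 in Δ22. CBX7, the reader of many differentiated cells, thus stood near 1 CPM. Its iLuc value of 0.60 ± 0.31 did not pass (adjusted p = 0.134), and without iEF replicate 2 it was 0.92 and passed. Its exons overlap those of another gene on the other strand over 1338 bases.

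RNF2 (ENSG00000121481, chr1:185014658-185071735, plus strand) encodes the main ubiquitin ligase of PRC1. RNF2 stood at 88, 95.1 and 75 CPM in the iLuc libraries and 42.8, 37.5 and 45.9 in iEF. Among the cDNA groups, WT-EF had 59, 65.8 and 55.9, mut9 48.1, 53.2 and 44.2, DAF 45.9, 46.8 and 42, DAF-mut9 42.7, 46.7 and 44.3 and Δ22 40.2, 45.3 and 46.1. The iLuc libraries lay above all others and WT-EF above the remaining groups (log2 fold change 1.02 ± 0.11 (SE), adjusted p = 1.80e-07 in iLuc, and 0.51 ± 0.11 in WT-EF). Its paralogue RING1 rose by 0.39 ± 0.12 in iLuc, a call that ended without iLuc replicate 2 or iEF replicate 1 (0.30). BMI1 stood at 73.6, 75.4 and 80.5 CPM in the iLuc libraries and 52.6, 41.9 and 57.7 in iEF. Rescue with WT-EF gave 69, 53.6 and 61.9, mut9 55.1, 53.5 and 51.9, DAF 56.1, 55 and 48.7, DAF-mut9 53.7, 49.1 and 49.1 and Δ22 44.6, 48.9 and 56.6. BMI1, a PCGF subunit, rose by 0.60 ± 0.12 in iLuc (adjusted p = 3.51e-04), and the WT-EF value of 0.28 ± 0.12 did not pass. BMI1 shares 1000 exon bases with the read-through gene COMMD3-BMI1.

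EZH2 (ENSG00000106462, chr7:148504349-148581413, minus strand), the methyltransferase of PRC2, followed the fusion. EZH2 stood at 185, 166 and 213 CPM in the iLuc libraries and 124, 95.4 and 105 in iEF. The rescued cells held 154, 175 and 165 CPM in WT-EF, 152, 179 and 173 in mut9, 108, 92.4 and 121 in DAF, 111, 102 and 118 in DAF-mut9 and 118, 102 and 92.9 in Δ22. The iLuc, WT-EF and mut9 libraries lay above every library of the other groups, which spanned 92.4 to 124 CPM. EZH2 rose by 0.80 ± 0.12 in iLuc, 0.61 ± 0.12 in WT-EF and 0.64 ± 0.12 in mut9 (adjusted p = 2.31e-05, 7.31e-04 and 0.00108), calls kept in all 14 settings. EZH1 stood at 23, 28.1 and 22.1 CPM in the iLuc libraries and 17.5, 23.7 and 21 in iEF. EZH1 counts in rescued cells were 20, 20.3 and 16.5 CPM for WT-EF, 19.2, 21.1 and 20.6 for mut9, 17.5, 21.6 and 21.9 for DAF, 17.2, 18.6 and 21.1 for DAF-mut9 and 16.9, 18.9 and 21.9 for Δ22. EZH1, the alternative enzyme, was 0.24 ± 0.13 in iLuc (adjusted p = 0.154).

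The other PRC2 genes showed smaller values. SUZ12 rose by 0.39 ± 0.14 in iLuc, and that call ended without iLuc replicate 2 or 3 or iEF replicate 1 or 2 (0.28 to 0.41). The EED value was -0.11 ± 0.12 and that of JARID2, an accessory subunit, 0.13 ± 0.12, and neither passed. No call was made for SUZ12, EED or JARID2 in WT-EF.

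The PHC genes, which encode the subunits through which PRC1 polymerizes, moved in opposite directions. PHC2 stood at 67.5, 65.9 and 68.5 CPM in the iLuc libraries and 157, 108 and 163 in iEF. In WT-EF the values were 96.1, 83.3 and 92.4, in mut9 116, 101 and 116, in DAF 111, 108 and 126, in DAF-mut9 144, 135 and 147 and in Δ22 127, 132 and 129. All iLuc libraries lay below all others, and the iEF libraries differed widely among themselves. PHC2 (ENSG00000134686, chr1:33789224-33896696, minus strand) fell in iLuc (log2 fold change -1.07 ± 0.11 (SE), adjusted p = 5.86e-08), in WT-EF (-0.64 ± 0.11) and in mut9 (-0.35 ± 0.11). The mut9 call ended without iEF replicate 1 or 3 or mut9 replicate 1, 2 or 3 (-0.37 to -0.28) and, with library totals, the value was -0.27 (adjusted p = 0.089).

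PHC1 stood at 29.8, 29.5 and 25 CPM in the iLuc libraries and 19.6, 20.7 and 16.8 in iEF. Levels of 20.9, 24.3 and 22.3 were found in WT-EF, 17.7, 19.8 and 21.3 in mut9, 10.8, 12.1 and 13.5 in DAF, 13.4, 12.6 and 14.8 in DAF-mut9 and 12.8, 14.3 and 10.2 in Δ22. PHC1 (ENSG00000111752, chr12:9066492-9094063, plus strand) was highest in iLuc and was lower than iEF where DAF or Δ22 was expressed. It rose by 0.56 ± 0.14 in iLuc and fell in DAF (-0.65 ± 0.14, adjusted p = 0.00555) and Δ22 (-0.61 ± 0.14, adjusted p = 0.0204). These calls ended without DAF replicate 1 (-0.57) in DAF and without iEF replicate 1 or 2 or Δ22 replicate 3 (-0.57 to -0.48) in Δ22. The DAF-mut9 value of -0.48 ± 0.14 did not pass (adjusted p = 0.0637). PHC1 shares 1105 exon bases with M6PR on the other strand.

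Because paralogues occupy the same place in a complex, their levels were compared per kilobase of the canonical transcript (CPM per kb), and these ratios are given as descriptions with no test. The ratio of CHD4 to CHD3 was 1.2 ± 0.0794 (SD, n = 3) in iLuc and 4.26 ± 0.468 in iEF, with 1.8 ± 0.184 in WT-EF and 2.06 ± 0.253 in mut9. DAF, DAF-mut9 and Δ22 lay at 3.2 ± 0.2, 3.45 ± 0.368 and 3.44 ± 0.248. The remodelling ATPases of NuRD were thus counted at near-equal levels with the endogenous fusion and mostly as CHD4 without it, within the limit on CHD4 given above. The ratio of EZH2 to EZH1 was 13.8 ± 3.25 in iLuc and 9.37 ± 2.74 in iEF, with overlapping libraries. SMARCA4 over SMARCA2 was 3.51 ± 1.14 and 3.17 ± 0.152, also overlapping. MTA2 over MTA1 was 4.88 ± 0.224 in iLuc and 8.04 ± 0.768 in iEF.

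Further pairs were chosen after their values were seen. SMARCC1 over SMARCC2 was 3.58 ± 0.348 in iLuc, 2.7 ± 0.144 in WT-EF, 2.35 ± 0.25 in mut9 and 1.33 ± 0.239 in iEF. ARID1A over ARID1B was 2.43 ± 0.344 in iLuc and 1.28 ± 0.0959 in iEF. BCL7B over BCL7A ran the other way, 3.92 ± 1.04 in iLuc and 9.44 ± 0.312 in iEF. MBD2 over MBD3 was 7.6 ± 1.42 against 15.3 ± 1.81, and PHC2 over PHC1 3.26 ± 0.387 against 10.3 ± 3.03. In each of these pairs, the iLuc and iEF libraries did not overlap.

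**Figure D3:**
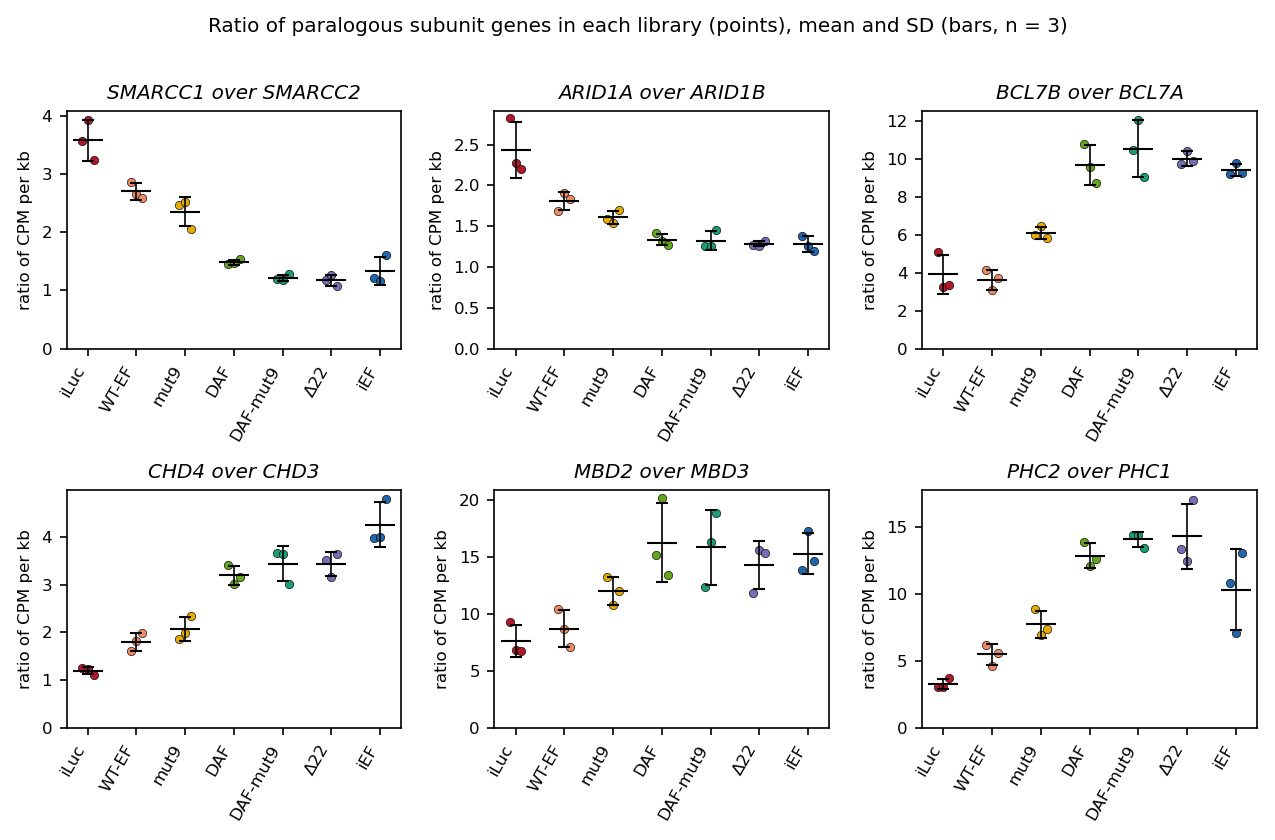
Ratio of CPM per kb between paralogous subunit genes in each library (points, linear axes from 0), with the mean and SD of 3 libraries as bars. SMARCC1 over SMARCC2 and ARID1A over ARID1B are highest in iLuc, the other 4 ratios are lowest in iLuc or WT-EF, and DAF, DAF-mut9 and Δ22 lie near iEF in most panels.

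Levels per kb also changed the order of subunits within a complex. SMARCC1, at 75.9 ± 13.8 CPM per kb, had the highest mean of the BAF genes in iLuc, within its SD of the next gene, ACTL6A (65.6 ± 8.37). In iEF it stood at 23.8 ± 1.38, below ACTL6A (54.6 ± 4.35), SS18 (52.1 ± 1.75) and SMARCA4 (41.4 ± 4.19). In NuRD, KDM1A was highest in both groups (110.3 ± 8.69 in iLuc and 78.3 ± 14.8 in iEF), with MTA2 within its SD in iEF (77.9 ± 5.98). Among polycomb genes EZH2 was highest in both (70.9 ± 8.82 and 40.7 ± 5.54). PHC2, second in iEF at 35.7 ± 7.44 and within the SD of EZH2 there, stood at 16.9 ± 0.335 in iLuc, below RNF2 (25.2 ± 2.99).

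Full-length rescue was compared directly with the endogenous fusion to find subunit genes whose level in WT-EF differed from that in iLuc. Of the 52 genes, 13 differed between WT-EF and iLuc (4 higher and 9 lower in WT-EF), where 18.3% of all genes did. Among genes with a mean of at least 10 CPM 31.1% did, and of the 48 subunit genes there 4 were higher and 8 lower. With library totals 7 were higher and 9 lower. The 4 higher calls became 7 without iLuc replicate 3, and the 9 lower calls 5 without WT-EF replicate 3. The calls kept in all 14 settings were RCOR1 (-1.11 ± 0.15, adjusted p = 2.42e-05), PHF10 (-0.93 ± 0.12, adjusted p = 9.61e-06), HDAC1, MTA3 (-0.63 ± 0.13) and RNF2 (-0.51 ± 0.11), which were lower in WT-EF, and DPF2 (0.64 ± 0.11, adjusted p = 3.13e-04), GATAD2B (0.44 ± 0.12) and PHC2 (0.43 ± 0.11), which were higher. GATAD2B, a NuRD scaffold gene, stood at 39.4, 41.6 and 40.9 CPM in iLuc and 48.1, 58.7 and 58.8 in WT-EF, without overlap. SMARCC1 was -0.41 ± 0.12 in WT-EF relative to iLuc (adjusted p = 0.0181), a call that ended without iLuc replicate 1 or 2 or WT-EF replicate 1, 2 or 3 (-0.42 to -0.29). For CHD3, EZH2, CBX2, CBX8, BCL7A and ARID2 no difference between WT-EF and iLuc passed, with log2 values of -0.35, -0.19, -0.29, -0.30, -0.18 and -0.13. The 95% interval for CHD3 ran from -0.60 to -0.09, and that for CBX8 from -0.68 to 0.07.

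**Figure D4:**
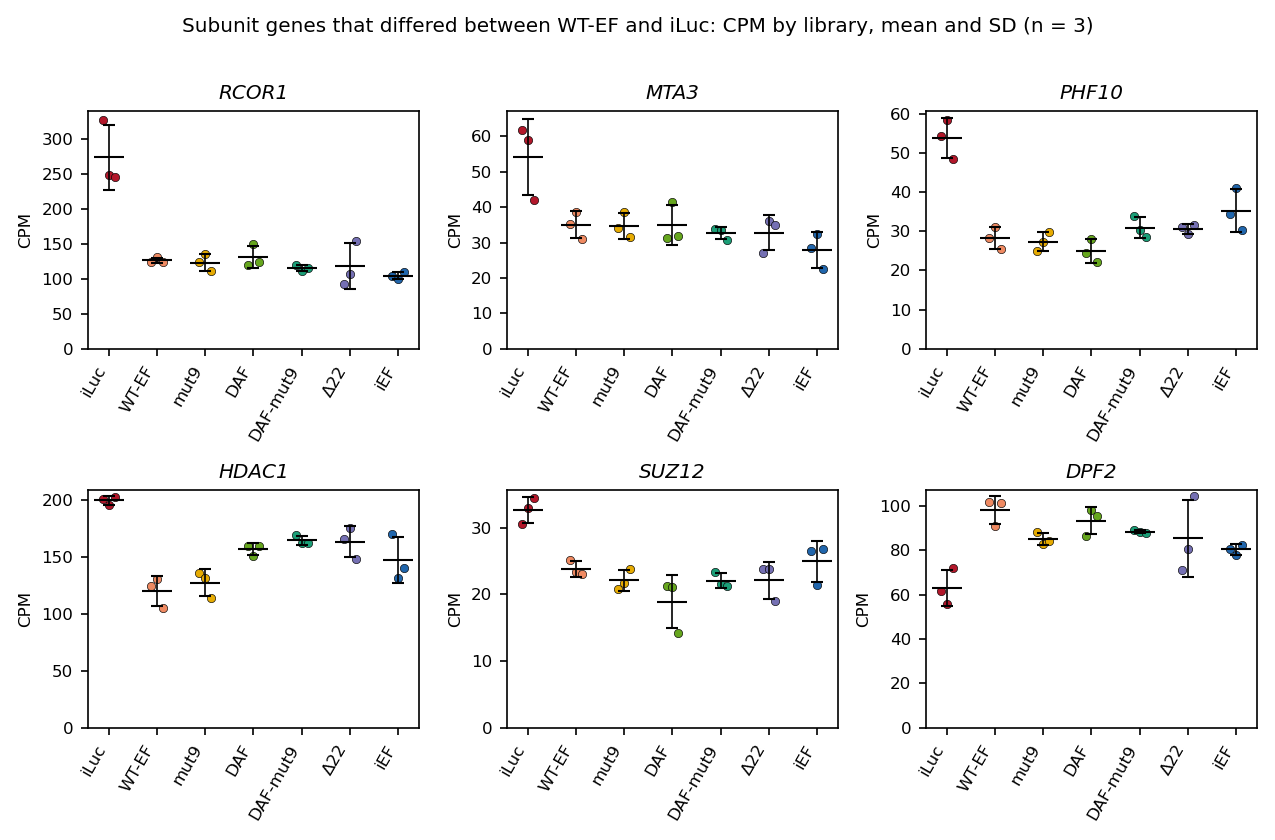
CPM of 6 subunit genes that differed between WT-EF and iLuc, in each library (points, linear axes from 0) with the mean and SD of 3 (bars). RCOR1, MTA3, PHF10, HDAC1 and SUZ12 are highest in iLuc, and WT-EF lies with or below the other groups, whereas DPF2 has its lowest mean in iLuc.

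The shortened mut9 was set against WT-EF, DAF and DAF-mut9. Against WT-EF 2 subunit genes differed, where 6.15% of all genes did, and 12.4% of genes with a mean of at least 10 CPM. BCL7A was -0.56 ± 0.16 (adjusted p = 0.0379) and CBX2 -0.72 ± 0.19 (adjusted p = 0.0245), both lower in mut9. The BCL7A call ended without WT-EF replicate 1 or 2 or mut9 replicate 1, 2 or 3 (-0.65 to -0.42) and the CBX2 call without WT-EF replicate 2 or 3 or mut9 replicate 1 or 3 (-0.79 to -0.63), so that the count was 0 without WT-EF replicate 2 or mut9 replicate 1 or 3 and 1 without WT-EF replicate 1 or 3. With only mut9 and WT-EF in the model 15 genes were called. Against DAF 7 genes differed, where 6.61% of all genes did, 6 of them higher in mut9. Genes with a mean of at least 10 CPM were higher in mut9 in 4.74% of cases and lower in 7.26%. Of the 48 subunit genes there 5 were higher and 0 lower. The share called in either direction thus lay near that of all genes at this level, with a larger share higher and a smaller share lower. With library totals 8 were higher and 0 lower. The calls kept in all 14 settings were SMARCC1 (0.65 ± 0.12, adjusted p = 0.00161), EZH2 (0.65 ± 0.12, adjusted p = 0.00228) and PHC1 (0.69 ± 0.14, adjusted p = 0.00365). The count was 4 without DAF replicate 2 or mut9 replicate 2.

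The effect of changing the remaining tyrosines was read from DAF-mut9 against mut9. There 11 subunit genes differed, 5 higher and 6 lower in DAF-mut9 than in mut9, where 9.83% of all genes differed. Among genes with a mean of at least 10 CPM 16.3% did, and of the 48 subunit genes there 4 were higher and 6 lower. With library totals 2 were higher and 8 lower. SMARCC1 (-0.81 ± 0.12, adjusted p = 9.10e-05), CHD3 (-0.72 ± 0.12, adjusted p = 4.29e-04) and EZH2 (-0.61 ± 0.12, adjusted p = 0.00235) fell and were kept in all 14 settings. The other 8 calls each ended in at least 1 setting, and the count was 3 without DAF-mut9 replicate 2, 4 without mut9 replicate 2 or 3, 5 without DAF-mut9 replicate 1 and 7 without mut9 replicate 1. The libraries of mut9 and DAF-mut9 did not overlap for SMARCC1, CHD3 or EZH2, whose values in every library are given above.

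Tyrosine changes in the full-length protein were read from DAF against WT-EF. DAF keeps the SYGQ2 tyrosines, whereas DAF-mut9 has all repeat tyrosines of mut9 changed, so the sets of changed tyrosines differ. Between DAF and WT-EF 25 of 52 genes differed, 7 higher and 18 lower in DAF, where 24.9% of all genes differed. Among genes with a mean of at least 10 CPM 44.1% did, with 27.4% higher and 16.7% lower in DAF. Of the 48 subunit genes there 6 were higher and 17 lower. The share of subunit genes called in either direction thus lay near that of all genes at this level. By direction, a smaller share of the subunit genes was higher in DAF and a larger share was lower. With library totals 3 were higher and 32 lower, while the median of all genes shifted to -0.25. The higher calls were 3 without WT-EF replicate 3 or DAF replicate 3 and 4 without WT-EF replicate 2 or DAF replicate 2. The 15 calls kept in all 14 settings were led by CBX8 (-1.3 ± 0.19, adjusted p = 2.30e-05), CBX2 (-1.11 ± 0.19), BCL7A (-1.07 ± 0.16), SMARCC1 (-0.91 ± 0.12), PHC1 (-0.89 ± 0.14), CHD3 (-0.67 ± 0.12) and EZH2 (-0.63 ± 0.12), which were lower in DAF. DPF3 (1.2 ± 0.22), DPF1 (0.97 ± 0.24) and MBD2 (0.54 ± 0.10) were higher in DAF. The interaction, the DAF-mut9 over mut9 change minus the DAF over WT-EF change, was called for 0 of the 52 genes by edgeR (3.33% of all genes) with 8 at an unadjusted p below 0.05, and no other tool was run on it. It compares these unequal sets of substitutions.

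Against Δ22, the form without EWS, WT-EF differed in 23 of 52 genes, 18 higher and 5 lower, where 25.2% of all genes differed. Among genes with a mean of at least 10 CPM 42.6% did, with 17.2% higher and 25.4% lower in WT-EF. Of the 48 subunit genes there 17 were higher and 4 lower. The share of subunit genes called in either direction thus lay near that of all genes at this level. By direction, a larger share of the subunit genes was higher in WT-EF and a smaller share was lower. With library totals 29 were higher and 4 lower, while the median of all genes shifted to 0.18. With limma on the ComBat values, which also used library totals, 29 were higher and 5 lower. CBX8 (1.25 ± 0.19), SMARCC1 (1.2 ± 0.12, adjusted p = 2.14e-07) and BCL7A (1.17 ± 0.16) had the largest rises of the 14 calls kept in all 14 settings. DAF against Δ22 gave 0 calls among the 52 genes by edgeR, DESeq2 and limma (0.972% of all genes by edgeR), with 4 at an unadjusted p below 0.05. DAF-mut9 against Δ22 gave 0 calls among the 52 genes by the same 3 tools (0% of all genes by edgeR), with 0 at an unadjusted p below 0.05. For SMARCC1 the DAF over Δ22 value was 0.29 ± 0.12 with a 95% interval of 0.04 to 0.54, and for EZH2 it was 0.04 ± 0.12 with -0.22 to 0.30.

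Other genes of the same complexes were read from lists of subunits outside the 54, for iLuc over iEF, where 18.7% of all genes rose and 22.4% fell. Of other BAF subunits 1 rose and 1 fell of 6 tested: BCL11B, a BAF subunit of T cells and neurons, rose by 2.68 ± 0.21 and ACTB fell by 0.46. Of other NuRD and CoREST subunits 6 rose and 2 fell of 10 tested. ZMYM3 (1.16 ± 0.15), RCOR2 (1.12 ± 0.35) and GSE1 (0.86 ± 0.11) rose most, and CDK2AP1 (-1.57 ± 0.18) and CHD5 (-1.44 ± 0.35) fell. Of other polycomb subunits 5 rose and 8 fell of 22 tested. SCML2 (1.58 ± 0.15) and SCMH1 (0.79 ± 0.14), PRC1 genes, were among those that rose, and PCGF5 (-0.89 ± 0.16), RYBP (-0.81 ± 0.16) and AUTS2 (-0.76 ± 0.21), genes of non-canonical PRC1, fell most.

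Outside the complexes, of PR-DUB subunits and H3K27 demethylases 0 rose and 1 fell of 6 tested, the 1 call being ASXL2 (-0.49 ± 0.12). Of other remodeller ATPases and partners 7 rose and 2 fell of 21 tested, with RUVBL1 (0.78 ± 0.11), RUVBL2 (0.56 ± 0.10) and SMARCA1 (0.50 ± 0.14) higher and SRCAP (-0.38 ± 0.12) and CHD1 (-0.30 ± 0.10) lower. The median log2 fold change was 0.16 for that list, 0.0013 for other BAF subunits, 0.45 for other NuRD and CoREST subunits, 0.10 for other polycomb subunits, -0.11 for the PR-DUB list and 0.55 for the proliferation genes described next. It was 0.30 for BAF, 0.29 for NuRD with KDM1A and 0.56 for polycomb.

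Genes of cell proliferation rose with the endogenous fusion and with WT-EF. Of 20 such genes 15 rose and 1 fell in iLuc (18.7% and 22.4% of all genes), 8 rose and 0 fell in WT-EF (11.4% and 16.9%), 1 rose and 0 fell in mut9 (6.22% and 8.33%), which is near the share of all genes, and 0 were called in DAF, DAF-mut9 and Δ22 by edgeR. At an unadjusted p below 0.05, 0, 2 and 0 differed in these last 3 groups. Their summed level was 3473 to 5336 CPM in iLuc, 3859 to 4001 in WT-EF, 3234 to 3546 in mut9, 2263 to 3217 in DAF, 3145 to 3544 in DAF-mut9, 2571 to 3576 in Δ22 and 2441 to 3803 in iEF. The ranges of this sum nearly coincided in mut9 and DAF-mut9. In DAF-mut9 over mut9, 0 of the 20 genes were higher and 2 lower, where 9.83% of all genes differed. Log2 fold changes of the 20 ran from -1.24 to 0.35. EZH2, SMARCC1 and the other genes above were not adjusted for proliferation, and its part in their changes was not tested. Of 6 markers of Ewing sarcoma 5 were higher in iLuc, among them NKX2-2 (3.22 ± 0.27) and NR0B1 (1.73 ± 0.27). The other, CD99, had 0 to 8 counts per library and was not called. CD99 lies at chrX:2609228-2659350, and how reads placed at more than 1 site were counted is not given in the sources used here. The expression of this marker thus cannot be judged from these counts. Markers of other cell types also had few counts. Of these PTPRC (immune cells) had 8 to 38 counts per library, EPCAM (epithelium) 1 to 23 and ALB (liver) 0 to 8, and EPCAM rose in iLuc (2.85 ± 0.47).

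Start-site sequences were read for GGAA, the core of the ETS motif that the FLI part of the fusion binds. RefSeq windows of 300 bases (250 before to 50 after a start, GRCh38.p14) were given for 48 of the 54 genes, 72 windows in all, and none was given for SMARCC1, SMARCC2, ACTL6A, ARID2, CBX2 and CBX8. Shown are the windows of the genes that rose or fell most in each complex among those with a single window, chosen after their values were seen, with GGAA and its reverse complement TTCC in capitals. They lie at chr12:122021634-122021933 on the plus strand (BCL7A), chr19:38229646-38229945 on the minus strand (DPF1), chr17:7888539-7888838 on the plus strand (CHD3), chr18:54224620-54224919 on the minus strand (MBD2) and chr1:185045308-185045607 on the plus strand (RNF2).
BCL7A: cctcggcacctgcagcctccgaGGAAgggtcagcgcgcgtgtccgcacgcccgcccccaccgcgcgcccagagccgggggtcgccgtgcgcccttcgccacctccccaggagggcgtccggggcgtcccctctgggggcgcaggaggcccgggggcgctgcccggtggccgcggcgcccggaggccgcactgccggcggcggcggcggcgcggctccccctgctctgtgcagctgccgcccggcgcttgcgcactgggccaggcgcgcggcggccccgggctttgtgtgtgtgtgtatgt
DPF1: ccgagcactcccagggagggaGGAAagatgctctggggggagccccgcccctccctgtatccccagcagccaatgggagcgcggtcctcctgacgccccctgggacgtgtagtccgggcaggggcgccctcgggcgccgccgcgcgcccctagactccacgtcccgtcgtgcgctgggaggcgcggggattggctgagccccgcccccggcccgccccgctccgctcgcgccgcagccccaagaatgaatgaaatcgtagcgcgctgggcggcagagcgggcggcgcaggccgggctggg
CHD3: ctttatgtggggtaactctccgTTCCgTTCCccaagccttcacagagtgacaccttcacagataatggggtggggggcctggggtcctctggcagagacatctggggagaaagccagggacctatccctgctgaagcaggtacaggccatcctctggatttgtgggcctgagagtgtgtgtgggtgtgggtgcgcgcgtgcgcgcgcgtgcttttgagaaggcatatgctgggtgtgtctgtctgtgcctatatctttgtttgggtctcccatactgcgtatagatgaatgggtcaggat
MBD2: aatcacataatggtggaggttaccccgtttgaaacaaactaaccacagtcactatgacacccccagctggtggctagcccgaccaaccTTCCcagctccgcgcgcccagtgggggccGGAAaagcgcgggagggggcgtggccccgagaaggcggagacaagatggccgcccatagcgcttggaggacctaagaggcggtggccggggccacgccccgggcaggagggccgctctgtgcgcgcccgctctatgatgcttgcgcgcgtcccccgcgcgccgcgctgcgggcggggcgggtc
RNF2: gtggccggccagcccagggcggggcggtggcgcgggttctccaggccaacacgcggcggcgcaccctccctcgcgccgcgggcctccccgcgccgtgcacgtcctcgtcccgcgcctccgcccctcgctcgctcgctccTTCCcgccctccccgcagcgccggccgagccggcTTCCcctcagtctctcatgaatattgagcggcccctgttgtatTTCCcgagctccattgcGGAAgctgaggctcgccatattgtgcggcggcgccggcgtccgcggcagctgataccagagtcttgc

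The windows of BCL7A, CHD3 and RNF2, genes that rose in iLuc, hold 1, 2 and 4 copies of GGAA on either strand, and those of DPF1 and MBD2, which fell, 1 and 2. The median was 3 over the 72 windows and over all 35116 windows. GGAA was present in 69 of the 72 windows and in 95.5% of all windows. The longer ETS motif CCGGAAG was in 10 of 72 and in 10.3% of all. The tandem GGAAGGAA was in 2 of 72 (BRD7 and SMARCA2) and in 3.67% of all. Of E2F motifs, TTTGGCGC was in 1 window (EZH2) and in 0.652% of all, and TTTCCCGC in 2 (BRD7 and SUZ12) and in 1.63% of all. Both strands were searched, CCGGAAG and GGAAGGAA also hold GGAA, and a match describes letters only.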

How the data were processed

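RNA-seq libraries of A673 cells were sequenced and processed by the authors, who aligned reads to hg19 with STAR (version 2.5.1b in the submitters' processing notes) and counted them per gene with HTSeq. Which annotation and strand setting were used is not given in the sources used here. The deposited table holds read counts per gene, and its summary lines were empty. The deposited adjusted values are a signal that the authors made from the counts with ComBat to remove differences between replicate sets, and they served here only as an alternative. The authors' own table of fold changes and p-values was not used. The column name mut9d was read as DAF-mut9.

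Counts were fitted with edgeR 4.0.16 in R 4.3.3 (quasi-likelihood test, TMM scaling, group and replicate set as terms, all 21 libraries) for the 30549 of 57820 genes that averaged 1 count or more over the libraries. P-values were adjusted by the Benjamini-Hochberg method over all tested genes in each comparison, with a threshold of 0.05. Scripts were tested on simulated data. The library depth makes 1 CPM equal to 32 to 45.2 counts. Levels per kb used the canonical transcript of GENCODE 44 lifted to GRCh37. Nothing in the labels says that replicates came from separate cultures beyond the replicate sets, so p-values measure the spread between these samples.

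The members and lists were chosen with earlier results of these data known. Values in every library are given for FLI1 and for fixed paralogue families, of which PCGF2 had no identifier and ACTL6B was not tested. They are also given for up to 5 called genes each way per complex. These had the largest change in iLuc over iEF and the same direction in all 3 sets. HDAC1 and PHC1 fall outside this rule and are given in addition. From other lists at most 3 called genes each way are named. Samples with the same replicate number deviated from their group means together (median r 0.16 over 63 pairs, -0.13 to 0.54, against -0.09 over 126 pairs with different numbers), and the replicate set was kept as a term because the authors adjusted for it. Alternatives were DESeq2 1.42.0, limma 3.58.1 on the ComBat values, RLE scaling, other filters and no replicate term. Only the compared groups were also fitted, and each library was left out in turn. Library totals in place of TMM were a further alternative, chosen after seeing the data. For limma, the ComBat values were scaled to their library totals, without TMM, and taken as log2 of CPM with a pseudocount of 1.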

Additional observations from a re-analysis of the deposited data

How the results depend on the processing

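No called result changed direction under any alternative that was run (ARID1B in WT-EF over iEF, which was not called, went from -0.02 to 0.18 with library totals), and with RLE scaling every count of called genes stayed within 1.5 times its value. Counts that moved further are given next, and the cause was not tested. With DESeq2 4 genes were lower in mut9 and 3 higher in DAF over iEF, 1 was lower in DAF-mut9 over iEF, 22 differed between WT-EF and iLuc and 6 between mut9 and WT-EF. Without the low-count filter 1 gene was higher and 2 lower in Δ22 over iEF, and 5 differed between mut9 and WT-EF. With filterByExpr 4 were lower in mut9 over iEF and 4 differed between mut9 and WT-EF. With limma on the ComBat values, which also used library totals without TMM, 34 were higher and 3 lower in WT-EF over iEF. In that setting 10 were higher and 1 lower in mut9 over iEF, and 1 was lower in DAF-mut9. There 20 differed between WT-EF and iLuc, 12 between mut9 and WT-EF and 11 between mut9 and DAF. With only the compared groups 3 were lower in iLuc, 1 in mut9, 0 in DAF and 0 in Δ22 over iEF, 0 were higher in DAF-mut9 and 15 differed between mut9 and WT-EF. With library totals 4 were lower in iLuc over iEF, 34 higher and 2 lower in WT-EF, 11 higher and 1 lower in mut9, and 8 differed between mut9 and WT-EF.

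Without the replicate block 1 gene was lower in mut9 over iEF, 0 were higher in DAF-mut9, 0 differed between mut9 and WT-EF and 7 between DAF-mut9 and mut9; the block changed no other count by more than 1.5 times.

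When each library was left out in turn, the genes higher over iEF numbered 24 to 26 in iLuc, 12 to 17 in WT-EF, 4 to 8 in mut9, 1 to 3 in DAF, 0 to 1 in DAF-mut9 and 0 to 0 in Δ22. The genes lower over iEF numbered 5 to 8, 3 to 6, 1 to 3, 0 to 3, 0 to 0 and 0 to 1 in the same order. Genes that differed numbered 10 to 16 between WT-EF and iLuc, 0 to 2 between mut9 and WT-EF, 4 to 6 between mut9 and DAF, 3 to 8 between DAF-mut9 and mut9, 18 to 22 between DAF and WT-EF and 17 to 23 between WT-EF and Δ22. The gene with the highest level per kb in each complex, in iLuc and in iEF, was the same with plain library totals. Genes of a few CPM, such as DPF1 and CBX7, rest on the fewest counts.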
